A study of Homo sapiens with 36 samples.

Results

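The data described here are the RNA levels and m6A peaks of ANKRD1 and 7 other genes of the Hippo-YAP/TAZ pathway in a head and neck cancer cell line. The genes were chosen by name, as 8 of the 21797 genes in the deposited expression table, and all 8 passed the filter of a mean level of 1 CPM (a read count scaled to the size of its library) that left 18227 genes for testing. ANKRD1 was included because its RNA rose in these libraries, so its differences between shRNA and scramble libraries are given as a description, with no test. The other 7 genes are CCN1, CCN2, AMOTL2, LATS2, TEAD1, YAP1 and WWTR1.

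The cells were UM-SCC-1, a human line established from a squamous cell carcinoma of the head and neck, all carrying a retroviral construct and kept under blasticidin at 10 ug/mL for 4 days. One set of libraries compares a scramble control with shRNA-1 and shRNA-2 against ALKBH5, the enzyme that removes the methyl group of N6-methyladenosine (m6A) from RNA, and the other compares its own scramble control with shRNA-1 and shRNA-2 against RBM33, an RNA-binding protein that the series' title describes as an m6A reader needed for ALKBH5 activity. The labels name the constructs shRNA in some places and siRNA in others, and all groups come from 1 cell line. The RNA libraries used here number 3, 2 and 2 for scramble, shRNA-1 and shRNA-2 in the ALKBH5 set and 3, 2 and 3 in the RBM33 set, and 3 further labelled libraries were not analysed here. Nothing in the labels says whether replicates came from separate infections, so p-values measure the spread between these libraries, which may be technical.

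Depth ranged from 4493849 to 6733017 assigned reads per library, so that 1 read was worth 0.143 to 0.220 CPM. ALKBH5 RNA was 108.8 to 131.7 CPM in its scramble libraries and 75.1 to 89.6 CPM in its shRNA libraries, a difference of -0.53 (SE 0.08, limma adjusted p = 9.1e-05) on the log2(CPM + 1) scale. RBM33 RNA was 207 to 227 CPM in its scramble libraries and 191 to 214 CPM in those labelled RBM33 shRNA, a difference of -0.10 (SE 0.06, limma adjusted p = 0.27). These ranges overlapped, so a knockdown of RBM33 was not shown at the RNA level, and the RBM33 set is named by its labels. Of 8 squamous epithelial markers 3 had a value, with DSP at 170 to 215 CPM, CDH1 at 0.381 to 4.2 CPM and EPCAM at 0.427 to 2.55 CPM. The keratins of the list and TP63 had no value, so DSP was the only marker above 4.2 CPM. These markers thus did not show the squamous origin of the line, which is given from its name. The values are from bulk RNA, in which fewer cells with a transcript and less of it per cell cannot be told apart.

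The Hippo pathway is a chain of kinases that restrains growth in response to cell contact, tension and polarity. STK3 and STK4 activate LATS1 and LATS2, which phosphorylate the coactivators YAP (gene YAP1) and TAZ (gene WWTR1) and keep them out of the nucleus. Unphosphorylated YAP and TAZ enter the nucleus and bind TEAD factors such as TEAD1, which recognise a short DNA element and raise transcription of targets that include ANKRD1, CCN1, CCN2, AMOTL2 and LATS2. AMOTL2 and LATS2 in turn restrain YAP and TAZ, so part of the target list is negative feedback. In squamous carcinoma YAP and TAZ are known as drivers of proliferation, invasion and a mesenchymal shift.

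The promoter sequences of 3 of the targets are shown because the TEAD element is the link between them and the coactivators. They are the 250 bases before an annotated start in the RefSeq table of GRCh38.p14, on the strand of the gene, with the core TEAD element GGAATG or its reverse complement CATTCC in capitals. The windows are chr10:90921088-90921337 (minus strand) for ANKRD1, chr6:131951373-131951622 (minus strand) for CCN2 and chr3:134374448-134374697 (minus strand) for the AMOTL2 start that lies downstream of the other.
ANKRD1: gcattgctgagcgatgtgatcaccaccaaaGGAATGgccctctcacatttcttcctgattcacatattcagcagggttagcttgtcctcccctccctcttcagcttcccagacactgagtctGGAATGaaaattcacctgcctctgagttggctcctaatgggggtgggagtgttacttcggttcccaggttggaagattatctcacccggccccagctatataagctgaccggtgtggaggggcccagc
CCN2: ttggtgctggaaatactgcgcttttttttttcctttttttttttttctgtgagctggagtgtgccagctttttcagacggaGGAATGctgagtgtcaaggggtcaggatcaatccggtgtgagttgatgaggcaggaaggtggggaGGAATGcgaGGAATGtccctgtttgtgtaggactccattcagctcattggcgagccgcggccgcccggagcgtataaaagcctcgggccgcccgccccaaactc
AMOTL2: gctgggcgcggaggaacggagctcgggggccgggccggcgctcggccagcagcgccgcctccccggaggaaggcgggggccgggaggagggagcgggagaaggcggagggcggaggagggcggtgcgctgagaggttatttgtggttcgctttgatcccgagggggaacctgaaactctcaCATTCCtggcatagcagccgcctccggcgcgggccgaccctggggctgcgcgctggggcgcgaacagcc

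ANKRD1 held the letters 2 times, at 220 to 215 and 128 to 123 bases before its start. CCN2 held them 3 times, at 169 to 164, 104 to 99 and 95 to 90 bases before its start, the last pair being 3 bases apart. In the AMOTL2 window they occurred 1 time, at 69 to 64 bases before the start, while the window of its other start had none. YAP1 held them 1 time, at 162 to 157 bases before its start, and the windows of LATS2 and WWTR1 had none. Of the 35116 windows of this length in the table, read on both strands with no other motif counted, 11.9% held the letters at least 1 time, 0.94% at least 2 times and 0.0826% at least 3 times. A match describes these letters and is not a measured binding site, and 6 of the 8 genes had a window in the table.

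ANKRD1 (ENSG00000148677, hg38 chromosome 10, 90912096 to 90921087, minus strand) encodes an ankyrin repeat protein of cardiac and skeletal muscle that acts in the nucleus as a transcriptional cofactor and at the sarcomere as a tension sensor. Its RNA was low in every scramble library, at 2.26 CPM or less, and at 44.3 CPM or more in every shRNA library. In the ALKBH5 set the scramble libraries held 0.514, 1.54 and 0.754 CPM, shRNA-1 held 50.6 and 59.2 CPM, and shRNA-2 held 52.4 and 44.3 CPM. The RBM33 scramble libraries held 2.26, 0.647 and 1.02 CPM, shRNA-1 held 51.3 and 63.2 CPM, and shRNA-2 held 61.3, 53.6 and 58.8 CPM. The lowest shRNA library, at 44.3 CPM, thus lay far above the highest scramble library, at 2.26 CPM.

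The scramble values rest on few reads, 3, 10 and 4 in the ALKBH5 set and 14, 4 and 6 in the RBM33 set, where 3 reads correspond to 0.43 to 0.66 CPM. Pooled over libraries, 1182 shRNA reads against 17 scramble reads gave a depth-scaled ratio of 53.6 (95% interval 33.3 to 92.4) in the ALKBH5 set. For the RBM33 set, 1431 against 24 reads gave a ratio of 43.8 (95% interval 29.3 to 68.6), and both intervals cover counting error only. On the log2(CPM + 1) scale, which understates the change of a gene this low in the control, the differences were 4.79 (SE 0.21) and 4.72 (SE 0.20), first among the rises of the 18227 genes tested in each set. The authors' deposited table gives log2 fold changes of 5.80 and 5.62 by edgeR for the ALKBH5 shRNAs and 5.42 and 5.44 for the RBM33 shRNAs. Their deposited DESeq2 values were smaller, at 5.21 and 5.03 for the ALKBH5 shRNAs and 5.26 and 5.36 for the RBM33 shRNAs.

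No difference in ANKRD1 between the constructs of a set passed the test. The shRNA-1 minus shRNA-2 difference was 0.18 (95% interval -0.38 to 0.74, limma adjusted p = 0.96) in the ALKBH5 set and -0.02 (95% interval -0.53 to 0.49, limma adjusted p = 1) among the RBM33 constructs. Between the sets, the ALKBH5 difference minus the RBM33 difference was 0.07, given as a description. The 2 scramble groups themselves differed by -0.23 (SE 0.22, limma adjusted p = 0.71). Per kilobase of counted length ANKRD1 averaged 0.627 CPM over the scramble libraries, above 12.8% of tested genes, and 30.7 CPM over the shRNA libraries, above 91.6% of them.

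**Figure D1:**
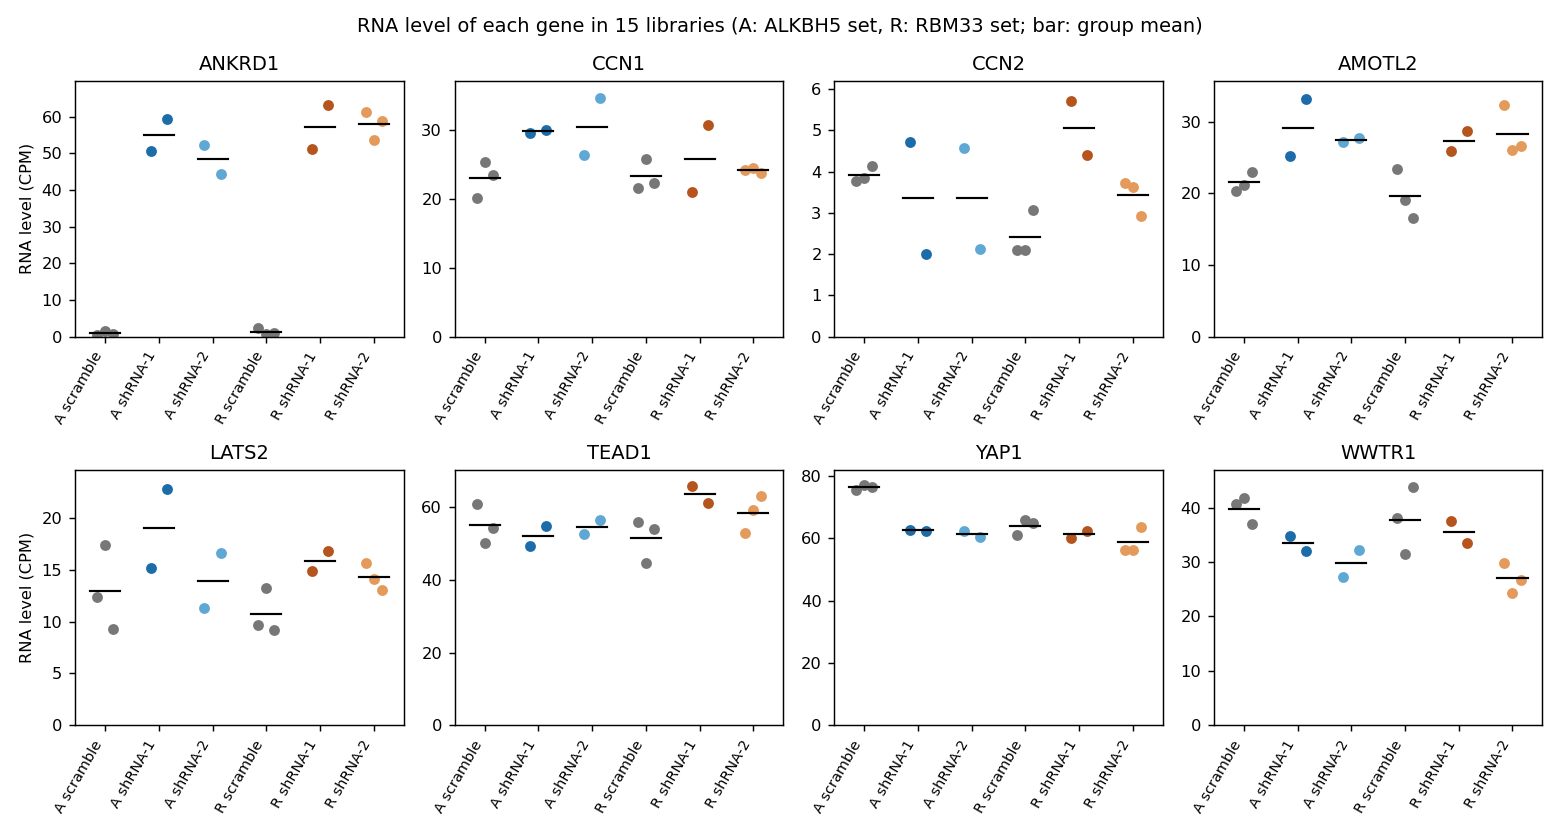
RNA level in CPM (y axis, from 0, a different scale in each panel) of the 8 genes in the 15 libraries, by group (x axis; A is the ALKBH5 set and R the RBM33 set), with points for libraries and bars for group means. ANKRD1 lies at 2.26 CPM or less in the scramble libraries and at 44.3 CPM or more in the others, while among the other 7 genes the widest relative range is that of CCN2, from 2.01 to 5.72 CPM.

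Because ANKRD1 is best known from muscle, the muscle marker list is given beside it. Of 14 muscle markers 7 had a value and 4 averaged at least 1 CPM, and their summed level was 60 to 84.6 CPM in scramble libraries and 96.6 to 140 CPM in shRNA libraries. Most of that sum was RYR2, a calcium channel of the sarcoplasmic reticulum, at 34.9 to 49.8 CPM in scramble and 72.4 to 102 CPM in shRNA libraries. TNNI3, which encodes cardiac troponin I, was at 10.1 to 18.3 CPM in scramble and 9.4 to 15.3 CPM in shRNA libraries, and TTN, which encodes titin, at 5.83 to 18.9 and 7.45 to 22.2 CPM. The other markers with a value, MYH6, MYH7, ACTA1 and DES, stayed at or under 2.92 CPM in every library. The part of these markers in the ANKRD1 result was not tested. ANKRD23, the only other member of the muscle ankyrin repeat family among the tested genes, averaged 5.3 CPM in ALKBH5 scramble and 6.99 CPM in ALKBH5 shRNA libraries, a difference of 0.35 (SE 0.22, limma adjusted p = 0.32). ANKRD23 differed by 0.23 in the RBM33 libraries (SE 0.21, limma adjusted p = 0.5).

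The genes whose log2 levels followed ANKRD1 most closely over the 15 libraries were the stress-inducible chaperones HSPA1A (Pearson r = 0.993) and HSPA1B (0.992), the pseudogene KLKP1 (0.989), the noncoding RNA AL671762.1 (0.988), AMH (0.987) and SAFB (0.985), which encodes a nuclear matrix protein. The libraries fall into a scramble and an shRNA cluster, which alone gives high coefficients, and the Spearman coefficients were 0.611 to 0.796. HSPA1A was 31.5 to 41.4 CPM in scramble and 405 to 518 CPM in shRNA libraries, and KLKP1 was 0.511 to 1.13 CPM and 20.2 to 37.4 CPM. HSPA1A and HSPA1B are near-identical copies whose reads the counting could have split, and AL671762.1 overlaps HSPA1B on the same strand, so these 3 are uncertain as separate genes. No gene in the table overlaps ANKRD1, and its nearest neighbour RPP30 held 24.3 to 37.4 CPM over the libraries.

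Among the other 7 genes, 1 of 7 was called in the ALKBH5 set, against 15.1% of all genes tested, and 1 of 7 in the RBM33 set, against 17.7% of all genes. These shares of adjusted calls are near the background. The call in the ALKBH5 set was a fall of YAP1 and that in the RBM33 set a rise of AMOTL2. With an unadjusted limma p under 0.05, 2 of the 7 were higher and 2 lower in the ALKBH5 set. Likewise 4 were higher and 1 lower in the RBM33 set. Over all 18227 genes tested, 5170 and 5633 were under that threshold, in either direction. The median difference of the 7 genes was -0.04 in the ALKBH5 set and 0.24 in the RBM33 set, beside medians of 0.01 and -0.01 over all genes.

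**Figure D2:**
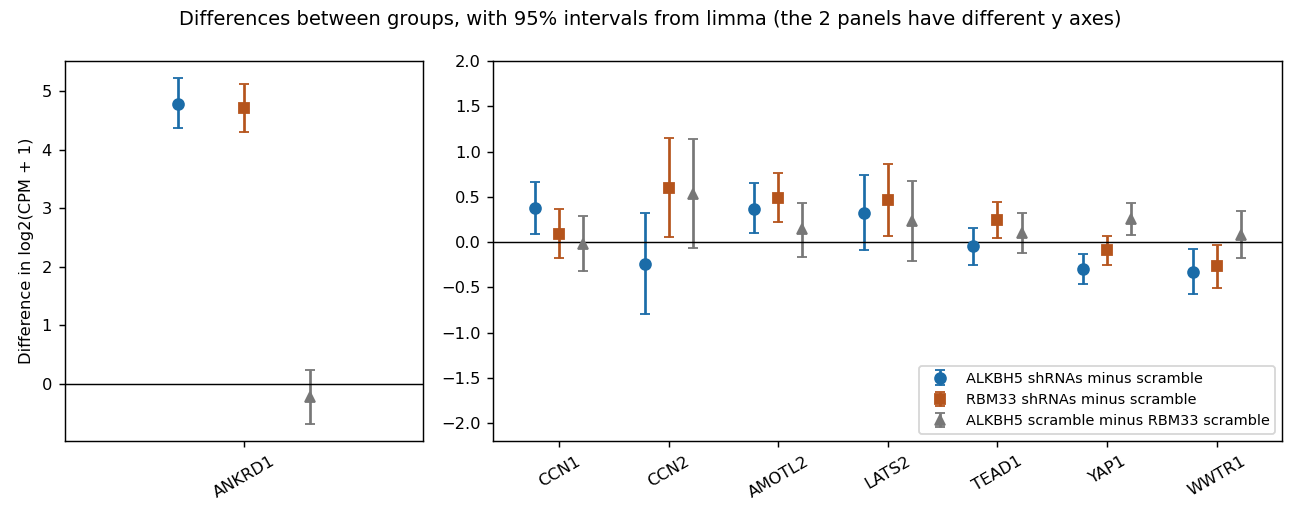
Difference in log2(CPM + 1) (y axis) for each gene (x axis) between shRNA and scramble libraries of each set and between the scramble groups, with 95% intervals from limma; ANKRD1 has its own axis on the left. ANKRD1 lies near 4.79 and 4.72, and the largest difference of another gene in these comparisons is 0.60, for CCN2 in the RBM33 set.

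CCN1 (chromosome 1, 85580761 to 85584589, plus strand; formerly CYR61) encodes a secreted matricellular protein that binds integrins and is an early YAP/TAZ target. It held 20.2, 25.4 and 23.6 CPM in ALKBH5 scramble, 29.7 and 30.1 CPM in shRNA-1, and 26.4 and 34.7 CPM in shRNA-2. All 4 ALKBH5 shRNA libraries were above all 3 scramble libraries, by 0.38 (SE 0.14), but the difference did not pass the test over all genes (limma adjusted p = 0.068). It passed in 4 of 22 alternative analyses, such as that without ALKBH5 shRNA-2 replicate 1 (0.47, limma adjusted p = 0.04). CCN1 in the RBM33 libraries held 21.7, 25.9 and 22.3 CPM in scramble, 21.0 and 30.8 CPM in shRNA-1, and 24.2, 24.6 and 23.8 CPM in shRNA-2. The groups overlapped, with a difference of 0.09 (SE 0.13, limma adjusted p = 0.69).

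CCN2 (chromosome 6, 131948176 to 131951372, minus strand; formerly CTGF) encodes a related matricellular protein that promotes matrix deposition and is, with CCN1 and ANKRD1, among the genes most used as YAP/TAZ readouts. It held 3.77, 3.84 and 4.15 CPM in ALKBH5 scramble, 4.73 and 2.01 CPM in shRNA-1, and 4.59 and 2.12 CPM in shRNA-2. The shRNA libraries thus spread to both sides of the scramble range, with a difference of -0.24 (SE 0.27, limma adjusted p = 0.62). The RBM33 libraries held 2.1, 2.1 and 3.07 CPM of CCN2 in scramble, 5.72 and 4.39 CPM in shRNA-1, and 3.74, 3.63 and 2.93 CPM in shRNA-2. The difference was 0.60 (SE 0.26, limma adjusted p = 0.12) and did not pass the test. The difference between the effects of the sets, -0.84 (SE 0.38, limma adjusted p = 0.28), did not pass either. For RBM33 shRNA-1 the authors' deposited DESeq2 values called CCN2 (log2 fold change 0.75, adjusted p = 0.048). Their edgeR values did not (1.06, false discovery rate 0.12), and neither called it for RBM33 shRNA-2. At 35 to 69 reads per group CCN2 was measured with the least depth of the 7 genes, and the noncoding RNA AL133346.1, at 0 to 1.43 CPM, overlaps it on the opposite strand.

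AMOTL2 (chromosome 3, 134355347 to 134375479, minus strand) encodes an angiomotin family protein that holds YAP at cell junctions. Its RNA in the RBM33 set was 23.4, 19.1 and 16.5 CPM in scramble, 25.9 and 28.7 CPM in shRNA-1, and 32.3, 26.1 and 26.6 CPM in shRNA-2. Every shRNA library lay above every scramble library, and the rise of 0.49 (SE 0.13, limma adjusted p = 0.011) passed the test, a ratio of mean CPM of 1.41. The call was lost without RBM33 scramble replicate 3, the lowest library (0.37, limma adjusted p = 0.091). DESeq2 called AMOTL2 for both RBM33 shRNAs in the authors' deposited values (adjusted p = 0.029 and 0.049). Their edgeR values called it for shRNA-2 (false discovery rate 0.03) and not for shRNA-1 (0.094). In the ALKBH5 set AMOTL2 held 20.4, 21.2 and 23.0 CPM in scramble, 25.2 and 33.2 CPM in shRNA-1, and 27.1 and 27.8 CPM in shRNA-2. The groups again did not overlap, and the difference of 0.37 (SE 0.14, limma adjusted p = 0.064) missed the threshold with all libraries and passed it without ALKBH5 shRNA-1 replicate 1 (0.47, limma adjusted p = 0.038). The effects of the sets were not shown to differ (-0.11 between them, limma adjusted p = 0.84). Of the 7 genes, AMOTL2 followed ANKRD1 most closely over the 15 libraries (Pearson r = 0.85, Spearman 0.89), above 97.6% of the tested genes, a description that rests on the same groups.

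LATS2 (chromosome 13, 20973036 to 21061586, minus strand) encodes a kinase that phosphorylates YAP and TAZ. It held 12.3, 17.4 and 9.24 CPM in ALKBH5 scramble, 15.2 and 22.8 CPM in shRNA-1, and 11.3 and 16.6 CPM in shRNA-2. The RBM33 libraries had 9.70, 13.3 and 9.20 CPM in scramble, 14.9 and 16.8 CPM in shRNA-1, and 15.6, 14.1 and 13.1 CPM in shRNA-2. The ranges overlapped in both sets, with differences of 0.32 (SE 0.20, limma adjusted p = 0.31) and 0.47 (SE 0.19, limma adjusted p = 0.10). For RBM33 shRNA-1 the authors' deposited DESeq2 values called LATS2 (log2 fold change 0.52, adjusted p = 0.036). Their edgeR values did not (0.56, false discovery rate 0.13), and neither called it for RBM33 shRNA-2.

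TEAD1 (chromosome 11, 12674421 to 12944737, plus strand) encodes a DNA-binding partner of YAP and TAZ. It held 61.0, 50.1 and 54.3 CPM in ALKBH5 scramble, 49.5 and 54.9 CPM in shRNA-1, and 52.5 and 56.5 CPM in shRNA-2, with a difference of -0.04 (SE 0.10, limma adjusted p = 0.83). RBM33 libraries held 55.9, 44.6 and 54.2 CPM in scramble, 66.0 and 61.3 CPM in shRNA-1, and 53.0, 59.4 and 63.1 CPM in shRNA-2, with a difference of 0.24 (SE 0.10, limma adjusted p = 0.086). In neither set did TEAD1 pass the test.

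YAP1 (chromosome 11, 102110447 to 102233424, plus strand) encodes YAP. It fell in the ALKBH5 set, from 75.7, 77.1 and 76.5 CPM in scramble to 62.8 and 62.5 CPM in shRNA-1 and 62.3 and 60.5 CPM in shRNA-2. The groups did not overlap, the difference was -0.30 (SE 0.08, limma adjusted p = 0.014), and the ratio of mean CPM was 0.811. The call held in all 22 alternative analyses, with adjusted p from 0.0088 to 0.049. YAP1 in the RBM33 libraries held 61.1, 66.0 and 65.1 CPM in scramble, 60.2 and 62.5 CPM in shRNA-1, and 56.3, 56.4 and 63.7 CPM in shRNA-2, a difference of -0.09 (SE 0.08, limma adjusted p = 0.45).

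The scramble libraries of the ALKBH5 set were the highest of all for YAP1, since every other library, the RBM33 scramble included, lay between 56.3 and 66.0 CPM. The scramble groups differed by 0.25 (SE 0.09, limma adjusted p = 0.14), and the effects of the sets differed by -0.21 (SE 0.11, limma adjusted p = 0.4). Limma called 0 of the 7 genes between the scramble groups, where 2.48% of all genes were called. Between the effects of the sets it called 0 of 7, against 2.69% of all genes. EdgeR and DESeq2 called 0 of 7 too. An unadjusted limma p under 0.05 was reached by 1 of 7 in each comparison, beside 2586 and 2780 of the 18227 genes tested. In the authors' deposited table the YAP1 log2 fold changes were -0.42 (adjusted p = 0.012) and -0.44 (adjusted p = 0.0067) by DESeq2 for the ALKBH5 shRNAs, and edgeR's false discovery rates there were 0.097 and 0.069.

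WWTR1 (chromosome 3, 149517235 to 149736714, minus strand) encodes TAZ, which shares its TEAD partners with YAP. It held 40.6, 41.8 and 37.0 CPM in ALKBH5 scramble, 34.8 and 32.1 CPM in shRNA-1, and 27.3 and 32.2 CPM in shRNA-2. All ALKBH5 shRNA libraries were below the scramble libraries, by -0.33 (SE 0.12), which missed the threshold (limma adjusted p = 0.067). WWTR1 in the RBM33 libraries was at 38.2, 31.5 and 43.8 CPM in scramble, 37.6 and 33.4 CPM in shRNA-1, and 29.9, 24.4 and 26.8 CPM in shRNA-2. The difference was -0.27 (SE 0.11, limma adjusted p = 0.11) and passed the test without RBM33 scramble replicate 2 (-0.39, limma adjusted p = 0.042). RBM33 shRNA-2 taken alone differed by -0.46 (SE 0.13, limma adjusted p = 0.016) and passed, while RBM33 shRNA-1 differed by -0.08 (limma adjusted p = 0.78); shRNA-1 minus shRNA-2 was 0.38 (limma adjusted p = 0.86). In the authors' deposited table WWTR1 was called for RBM33 shRNA-2 by edgeR (log2 fold change -0.49, false discovery rate 0.023) and not by DESeq2 (-0.46, adjusted p = 0.1), and for ALKBH5 shRNA-2 by DESeq2 (-0.65, adjusted p = 0.0025) and not by edgeR (-0.42, false discovery rate 0.083). WWTR1-IT1 and WWTR1-AS1 overlap the gene and held at most 2.64 and 1.62 CPM.

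Per kilobase of counted length, the order of mean levels in the ALKBH5 scramble libraries was YAP1 at 12.1 CPM, CCN1 at 6.23, TEAD1 at 5.15, WWTR1 at 4.76, AMOTL2 at 3.32, LATS2 at 2.31, CCN2 at 1.68 and ANKRD1 at 0.522. The libraries of CCN1 (5.47 to 6.86) overlapped those of TEAD1 (4.68 to 5.70), and these overlapped WWTR1 (4.42 to 5), so the order within that trio is not resolved. LATS2 (1.65 to 3.09) likewise overlapped CCN2 (1.61 to 1.77). Among the RBM33 scramble libraries YAP1 was again the highest at 10.1 CPM per kilobase and ANKRD1 the lowest mean at 0.732, although its libraries (0.361 to 1.26) overlapped those of CCN2 (0.899 to 1.31). In the 4 shRNA groups ANKRD1, at 27 to 32.4 CPM per kilobase, moved from last place to first, above YAP1 at 9.32 to 9.93.

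Of 22 genes of a published YAP/TAZ-TEAD target signature, 20 were tested, among them 5 of the 8 genes above. Apart from ANKRD1, 0 of 19 rose and 1 fell in the ALKBH5 set, and 3 rose and 0 fell in the RBM33 set. Over all genes tested, 7.93% rose and 7.18% fell in the ALKBH5 set, and 8.5% rose and 9.25% fell in the RBM33 set. At an unadjusted limma p under 0.05, 3 of the 19 were higher and 4 lower in the ALKBH5 set. By the same rule 5 were higher and 3 lower in the RBM33 set. Of all 18227 genes tested, 5170 and 5633 were under that threshold in the 2 sets, in either direction. EdgeR and DESeq2 also called 0 of the 19 higher in the ALKBH5 set. The medians without ANKRD1 were -0.09 and 0.05. CCDC80, a matrix protein gene, fell from a mean of 18.3 CPM to 11.4 CPM in the ALKBH5 set (-0.70, SE 0.18, limma adjusted p = 0.011) and differed by -0.12 in the RBM33 set (limma adjusted p = 0.69). In the RBM33 set FJX1 rose from 7.54 to 13 CPM (0.72, limma adjusted p = 0.011) and DOCK5, an exchange factor for Rac, from 34.2 to 47.8 CPM (0.47, limma adjusted p = 0.0012). FJX1 differed by 0.34 and DOCK5 by 0.14 in the ALKBH5 set, where neither passed (limma adjusted p = 0.27 and 0.38). CCDC80 lost its call without ALKBH5 scramble replicate 1, shRNA-1 replicate 1 or shRNA-2 replicate 3 (highest limma adjusted p = 0.066), and FJX1 without RBM33 scramble replicate 1 or 2 (highest limma adjusted p = 0.065).

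Among 25 Hippo kinases, scaffolds and inhibitors, all tested, 1 rose and 3 fell in the ALKBH5 set and 5 rose and 1 fell in the RBM33 set, with medians of -0.02 and 0.09. The 4 calls in the ALKBH5 set are a share near the 15.1% of all genes called there, and the 5 of 25 that rose in the RBM33 set stand beside 8.5% of all genes. Of the TAO kinases, which act upstream of STK3 and STK4, TAOK2 rose and TAOK3 fell in both sets, and TAOK1 passed in neither (-0.11, limma adjusted p = 0.31, and 0.18, limma adjusted p = 0.066). TAOK1 was called between the scramble groups, at 212 CPM in the ALKBH5 set and 174 CPM in the RBM33 set (0.28, limma adjusted p = 0.038). TAOK2 rose from 71.3 to 86.5 CPM in the ALKBH5 set (0.28, limma adjusted p = 0.037) and from 61.6 to 89.5 CPM in the RBM33 set (0.54, limma adjusted p = 9.6e-05). TAOK3 fell from 36.4 to 26.6 CPM (-0.44, limma adjusted p = 0.01) and from 40.4 to 32.1 CPM (-0.32, limma adjusted p = 0.041). In the ALKBH5 set the striatin gene STRN, a scaffold of the phosphatase complex that opposes STK3 and STK4, fell from 88.4 to 70.3 CPM (-0.33, limma adjusted p = 0.0087), and AMOTL1, a relative of AMOTL2, from 154 to 130 CPM (-0.24, limma adjusted p = 0.025). Neither STRN nor AMOTL1 passed in the RBM33 set (0.01, limma adjusted p = 0.93, and -0.13, limma adjusted p = 0.23).

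In the RBM33 set NF2, the tumour suppressor merlin that activates the pathway at the membrane, rose from 49 to 66.7 CPM (0.44, limma adjusted p = 0.0016). FAT1, a protocadherin that is often mutated in head and neck cancer, rose from 194 to 247 CPM (0.35, limma adjusted p = 0.0011), and STRN3 from 55.5 to 66.7 CPM (0.26, limma adjusted p = 0.046). In the ALKBH5 set NF2 differed by 0.26 (limma adjusted p = 0.065) and FAT1 by 0.20 (limma adjusted p = 0.063). Of these calls, those of STRN, NF2, FAT1 and of TAOK2 in the RBM33 set held in all 22 alternative analyses. TAOK2 in the ALKBH5 set and AMOTL1 each lost the call in 6 of 22, TAOK3 in 2 and 9 of 22 in the 2 sets, and STRN3 in 13 of 22. The lost calls of TAOK2 and AMOTL1 came mostly from leaving out a single library, for example ALKBH5 scramble replicate 1 (limma adjusted p = 0.22 and 0.059), and so did those of TAOK3, for example without ALKBH5 scramble replicate 2 (0.069) or RBM33 scramble replicate 1 (0.15).

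Of the TEAD factors and their cofactors 9 of 10 were tested, and YAP1 in the ALKBH5 set was the only call. That is 1 of 9 in the ALKBH5 set and 0 of 9 in the RBM33 set, against 15.1% and 17.7% of all genes. TEAD2 averaged 19.7 CPM in ALKBH5 scramble and 15.1 CPM in ALKBH5 shRNA libraries (-0.37, limma adjusted p = 0.19), and 19.6 and 14 CPM in the RBM33 set (-0.46, limma adjusted p = 0.079). The median of the 9 genes was -0.31 in the ALKBH5 set and -0.04 in the RBM33 set, beside 0.01 and -0.01 over all genes. VGLL4, a cofactor that competes with YAP for TEAD, differed by 0.02 and 0.21 (limma adjusted p = 0.95 and 0.24).

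**Figure D3:**
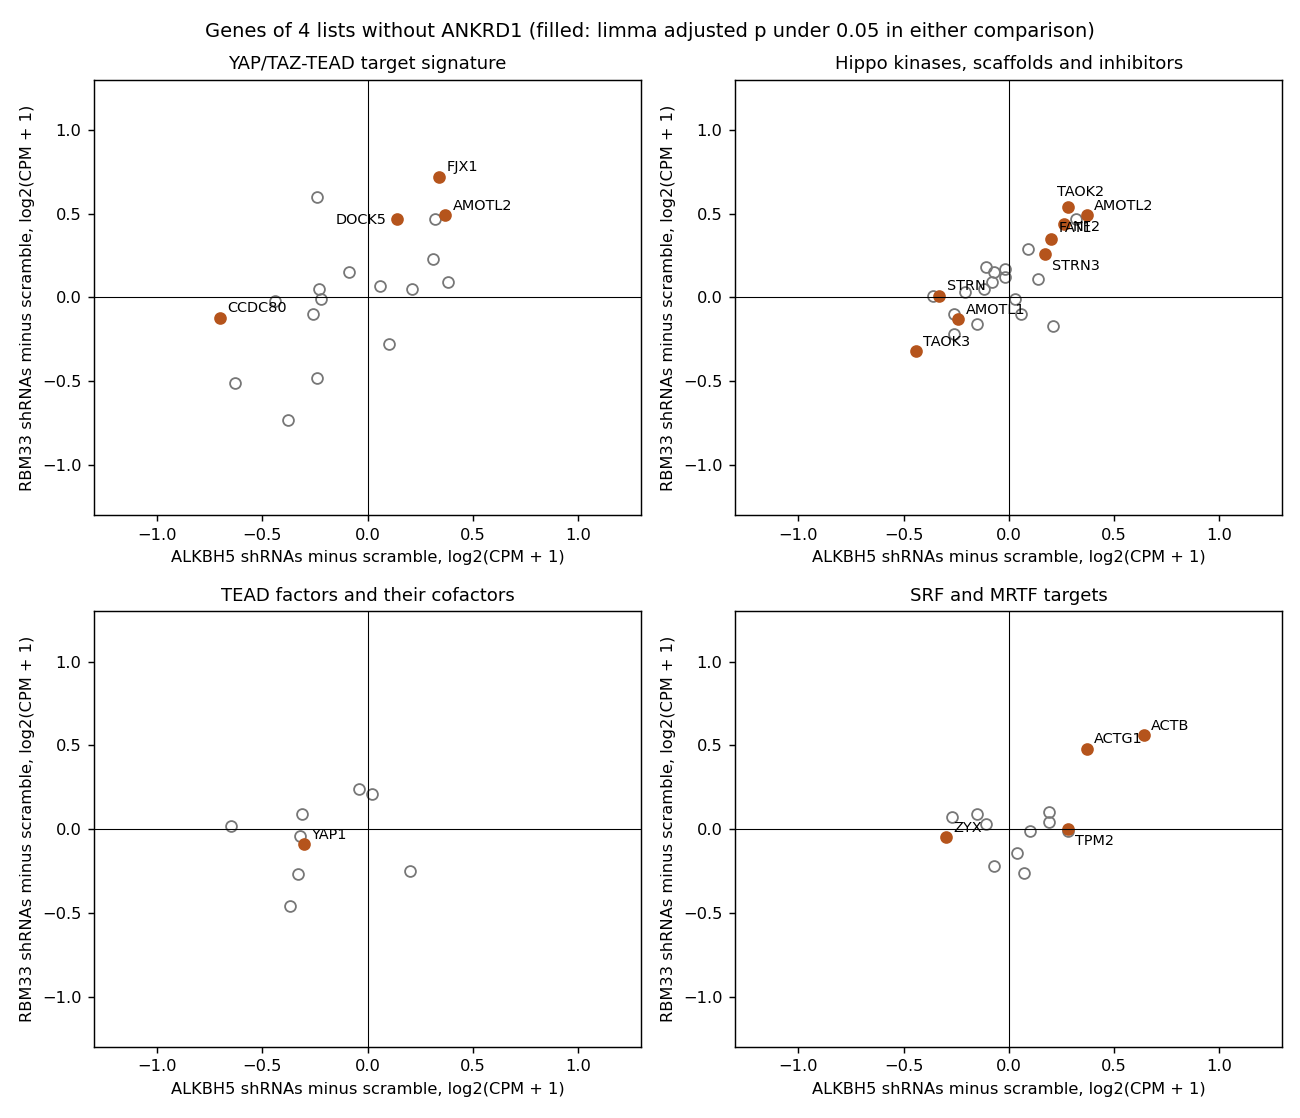
Difference in log2(CPM + 1) between shRNA and scramble libraries in the ALKBH5 set (x axis) and the RBM33 set (y axis) for the genes of 4 lists, 1 point per gene, with ANKRD1 left out. Filled, named points had a limma adjusted p under 0.05 in at least 1 set, and no point reaches 1 in either direction. Among those named, CCDC80 lies farthest along the x axis, at -0.70, and FJX1 along the y axis, at 0.72. ACTB lies far out on both axes, at 0.64 and 0.56.

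The m6A data are the authors' tables of peaks that differed between an shRNA and its scramble group by m6A-seq, in which RNA fragments bound by an m6A antibody are set against the input. Each table gives an effect on a natural log scale, positive where methylation was higher with the shRNA. It lists only effects of at least 0.5 in size, so a gene without a listed peak may still be methylated. The highest authors' p listed was 0.006 and 0.0083 for ALKBH5 shRNA-1 and shRNA-2, but 0.00068 and 0.0011 for the RBM33 shRNAs. A peak with a p between these limits could thus be listed for ALKBH5 and not for RBM33. The tables hold 13120 and 19251 peaks for ALKBH5 shRNA-1 and shRNA-2, of which 64.7% and 72.5% were higher, and 2070 and 3268 peaks for RBM33 shRNA-1 and shRNA-2, of which 87.6% and 87.5% were higher. The 2 tables of a set were made against the same scramble group. The effects and p-values below are the authors', the positions are hg38, and whether a peak is exonic was not analysed here.

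Of the 8 genes, 4 had a listed peak for ALKBH5 shRNA-1, against 32.6% of the 18171 gene names tested for RNA, and 6 for ALKBH5 shRNA-2, against 38.2%. For RBM33 shRNA-1 none of the 8 had one, against 7.94%, and for RBM33 shRNA-2 only CCN1 had one, against 11.5%. In all 18 peaks were listed for the 8 genes, and CCN2 and WWTR1 had none in the 4 tables. The deposited tables of methylated fractions listed 0 peaks in the 8 genes.

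ANKRD1 had 1 peak, at chr10:90920224-90920273, 815 to 864 bases into the gene. In the authors' deposited tables its effect was -1.15 (a fold of 0.317, p = 6.8e-05) with ALKBH5 shRNA-1 and -0.66 (a fold of 0.519, p = 2.6e-05) with ALKBH5 shRNA-2, so the methylation signal relative to input was lower in the libraries with more ANKRD1 RNA. Effects below these made up 11.6% and 20.5% of the tables. In the RNA-seq libraries the whole gene held 3 to 10 reads per ALKBH5 scramble library, so the scramble side of this ratio rests on little RNA.

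CCN1 had a peak at chr1:85582558-85582607 in 3 of the 4 tables, 1798 to 1847 bases into the gene. The effect in the authors' deposited tables was 1.69 (a fold of 5.44, p = 4.2e-05) with ALKBH5 shRNA-1, 1.54 (a fold of 4.65, p = 0.0004) with ALKBH5 shRNA-2 and 1.17 (a fold of 3.21, p = 0.00065) with RBM33 shRNA-2. With ALKBH5 shRNA-2 the authors' deposited table lists 2 more CCN1 peaks, at chr1:85582458-85582507 with 1.92 and at chr1:85582823-85582872 with 0.89. All 5 entries for CCN1 were higher with the shRNA. CCN1 is the only one of the 8 genes listed in both sets, of which the RBM33 tables end at a lower p.

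AMOTL2 had peaks toward its 3′ end that were higher with both ALKBH5 shRNAs. At chr3:134356533-134356582, 93.9% of the way along the gene, the authors' deposited tables give an effect of 0.58 (p = 0.0022) with shRNA-1 and of 0.79 (p = 0.0015) with shRNA-2. In the same deposited tables, neighbouring windows at chr3:134357583-134357632 with shRNA-1 (0.93) and chr3:134357533-134357582 with shRNA-2 (0.82) abut each other. For shRNA-1 the authors' deposited table also lists a higher peak at chr3:134360174-134360223 (1.13) and a lower one nearer the start, at chr3:134371119-134371168 (-0.72). LATS2 had 2 peaks in the authors' deposited tables, both with ALKBH5 shRNA-2, at chr13:20983298-20983397 (1.69) and in 2 blocks within chr13:20983748-20987971 (1.88, a fold of 6.52, p = 2e-08), the latter with the lowest p among the 18.

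For the transcription factor and the coactivator the listed peaks lay near the start of the gene and did not repeat. TEAD1 had 1 peak in the authors' deposited tables, with ALKBH5 shRNA-2, at chr11:12675446-12675495 (-0.80, p = 0.0022). For YAP1 the authors' deposited tables list a peak at chr11:102110461-102110510, 15 to 64 bases into the gene, that was higher with ALKBH5 shRNA-1 (1.90, p = 0.0013), and one at chr11:102110561-102110610, 115 to 164 bases into it, that was lower with shRNA-2 (-0.85, p = 0.0076). The YAP1 windows of the 2 shRNAs thus differ in position and in sign, and the difference between them was not tested.

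**Figure D4:**
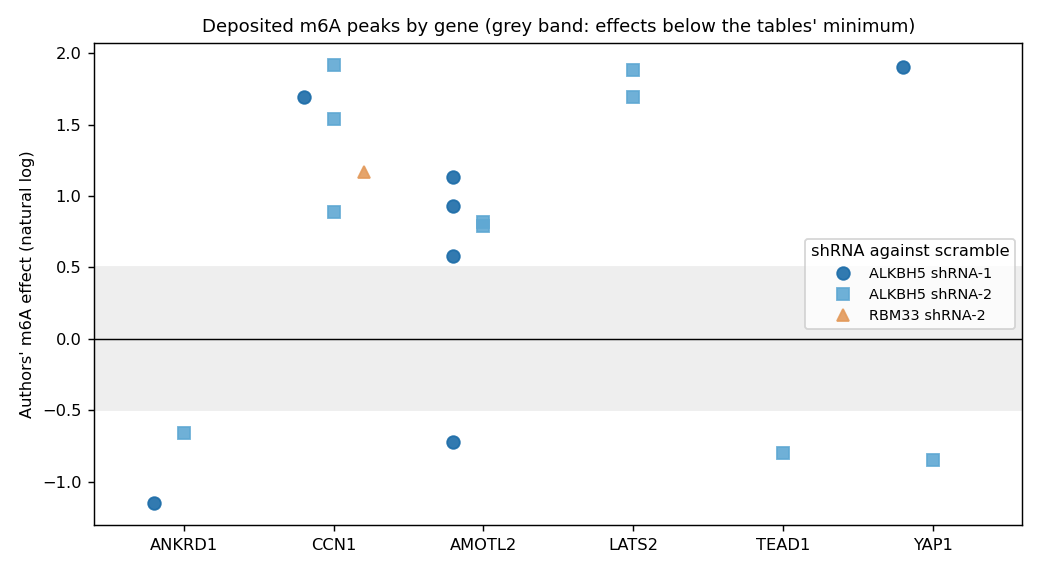
The authors' m6A effect (natural log, y axis) of every listed peak of the 8 genes, by gene (x axis) and table (symbols); the grey band marks effects under 0.5 in size, which the tables leave out. CCN1 and LATS2 have only higher peaks and ANKRD1 only lower ones, at -1.15 and -0.66.

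Among the wider Hippo list, 16 of 25 genes had a listed peak with ALKBH5 shRNA-1 and 22 of 25 with shRNA-2, where 32.6% and 38.2% of all gene names had one. Of their peaks 43 of 53 and 71 of 87 were higher, beside 64.7% and 72.5% of all peaks in these tables. With RBM33 shRNA-1 and shRNA-2 it was 5 and 8 of 25 genes, against 7.94% and 11.5% of all gene names, with 6 of 6 and 8 of 9 peaks higher, beside 87.6% and 87.5% of all peaks. TAOK1 and TAOK2 were listed in all 4 tables, with every peak higher: TAOK2 had effects of 1.15 to 2.34, 0.94 to 1.17, 1.10 and 2.51 in the order given. NF2 had 4 and 5 higher peaks with the ALKBH5 shRNAs and 1 with RBM33 shRNA-2 (1.56). Of the 20 tested signature genes, 12, 13, 3 and 4 had a listed peak in the 4 tables, against the same 32.6%, 38.2%, 7.94% and 11.5% of all gene names. Of the signature peaks 12 of 21, 15 of 24, 1 of 3 and 3 of 4 were higher, beside 64.7%, 72.5%, 87.6% and 87.5% of all peaks. RNA level and length were not matched here.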

How the data were processed

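RNA-seq and m6A-seq libraries of UM-SCC-1 cells were labelled as 6 groups, and 15 of the 18 labelled RNA libraries were used. The submitters' processing notes name cutadapt 1.18, HISAT2 2.1.0, featureCounts of Subread 1.6.4, edgeR 3.24.3, DESeq2 and the build hg38. The authors deposited CPM values, a signal scaled by library size factors; whole read counts were recovered from the deposited CPM for 100% of values within 0.1 read. The authors' deposited tables also give log2 fold changes with their p-values, m6A effects as natural log values with p-values, and methylated fractions; the base of the m6A effect was checked from its values.

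Log2(CPM + 1) was fitted with limma 3.58.1 (R 4.3.3, mean-variance trend) for the 18227 genes whose mean was 1 CPM or more, as 6 group means with 9 residual degrees of freedom. The 2 shRNA groups of a set were averaged and p-values were adjusted by Benjamini-Hochberg over all genes tested, with a threshold of 0.05. The genes and lists were chosen with earlier results of these data known. Named were the 8 genes, the list genes called in either set (at most 6 per list and direction), the 6 genes most correlated with ANKRD1, and ALKBH5 and RBM33. Alternatives were a pseudocount of 0.5, no filter or a mean of 5 CPM, edgeR 4.0.16 and DESeq2 1.42.0 on the recovered reads, a gene length correction, a replicate block and leaving out each library. The ratio of ANKRD1 reads has an exact 95% interval. The code was tested on simulated data. Fewer than 3 reads was taken as not detected.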

Additional observations from a re-analysis of the deposited data

How the results depend on the processing

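Of 1228 repeats over 56 differences of single genes, 1148 kept their direction and their side of the threshold, 50 lost and 12 gained a call, and 13 changed sign. The other 5 were of ANKRD1 between shRNA and scramble libraries, which became larger with edgeR, DESeq2 or a pseudocount of 0.5. The differences of ANKRD1 in the 2 sets were 4.63 to 5.74 and 4.51 to 5.46 over all alternatives. The sign changes were of differences that did not pass the test. With the gene length trend removed they were CCN1 between the scramble groups (0.01), and ANKRD1 (-0.03) and WWTR1 (0.02) between the effects of the sets. Leaving out single libraries gave TEAD1 -0.11 to 0.03 in the ALKBH5 set and CCN1 -0.04 to 0.22 in the RBM33 set. Between the scramble groups it gave CCN1 -0.09 to 0.07, ANKRD1 -0.44 to 0.05 and WWTR1 -0.04 to 0.19, and between the effects of the sets ANKRD1 -0.21 to 0.29, LATS2 -0.35 to 0.07 and WWTR1 -0.16 to 0.07.

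The counts of called genes ranged, without single libraries, from 1710 to 2858 in the ALKBH5 set (2754 with all), 2062 to 3262 in the RBM33 set (3235), 241 to 509 between the scramble groups (452) and 266 to 579 between the effects of the sets (491); the fewest in the ALKBH5 set came without ALKBH5 scramble replicate 1 and in the RBM33 set without RBM33 scramble replicate 2, with fewer samples in the fit. With the gene length trend removed the last count was 315, and the cause was not tested. With DESeq2, 22.4% of the calls between the scramble groups were higher, against 10.8% in limma, and 64.2% against 74.5% between the effects of the sets.

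Between libraries with the same replicate number, deviations from the group mean had correlations of -0.08 to 0.07. Between different numbers these correlations were -0.06 to 0.08 in the ALKBH5 set and -0.08 to 0.09 in the RBM33 set. Of 15 libraries, 3 correlated best with one of their own number. In a group of 2 libraries the deviations mirror each other, so their correlations with another library are equal and opposite. Whether the numbers pair the samples was thus not tested. A replicate block gave 2473, 3046, 364 and 397 calls in the 4 comparisons, and CCN1 passed in the ALKBH5 set (0.41, limma adjusted p = 0.037). Matching the listed peaks by position in place of name also gave 18 peaks in the 8 genes. Depth limits CCN2 and the scramble level of ANKRD1 most.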

Other observations

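Targets of SRF and MRTF, which respond to actin dynamics and share several promoters with YAP/TAZ, were measured as a neighbouring list. Of 14 tested, 3 rose and 1 fell in the ALKBH5 set and 2 rose and 0 fell in the RBM33 set, with medians of 0.08 and 0.01, where 15.1% and 17.7% of all genes were called in either direction. ACTB, which encodes beta-actin, rose from a mean of 560 to 871 CPM in the ALKBH5 set (0.64, SE 0.06, limma adjusted p = 2.8e-07) and from 625 to 924 CPM in the RBM33 set (0.56, SE 0.06, limma adjusted p = 5.8e-07). ACTG1, which encodes gamma-actin, rose from 386 to 500 CPM (0.37, limma adjusted p = 0.00043) and from 415 to 581 CPM (0.48, limma adjusted p = 7.4e-06). Both actin calls held in all 22 alternatives in both sets. In the ALKBH5 set the tropomyosin gene TPM2 rose from 244 to 296 CPM (0.28, limma adjusted p = 0.0078), and this call was lost without ALKBH5 scramble replicate 1 (limma adjusted p = 0.058). TPM2 averaged 291 CPM in both RBM33 scramble and RBM33 shRNA libraries, and the scramble groups differed by -0.25 (limma adjusted p = 0.073). ZYX, which encodes the focal adhesion protein zyxin, fell from 51.7 to 41.8 CPM in the ALKBH5 set (-0.30, limma adjusted p = 0.042). Its call was lost in 7 of 22 alternatives, and in the RBM33 set it differed by -0.05 (limma adjusted p = 0.76).

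In the authors' deposited tables of methylated fractions, TAOK2 held a peak at chr16:29973917-29973966 with 54.8% methylated in scramble and 85.7% with ALKBH5 shRNA-1 (authors' adjusted p = 0.054). In the same tables TAGLN2 held 1 peak, at chr1:159918211-159918310, with 58.7% in scramble and 23.5% and 29% with the ALKBH5 shRNAs (authors' adjusted p = 0.00021 and 0.016). The authors' deposited peak tables list TAGLN2 with higher effects only, at 0.66 with ALKBH5 shRNA-1 and 0.65 to 1.11 with ALKBH5 shRNA-2. With RBM33 shRNA-1 and shRNA-2 the listed effects were 0.90 and 0.89. The positions of these listed peaks are not given here.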
